A study of Mus musculus with 3 samples.

Results

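Iron and metal handling was followed through 10 genes of the 22238 that were quantified in all 3 libraries of the study. They are a list of iron transport, iron storage and metallothionein genes, set by function and drawn up with earlier results of these data known. The list held the ferritin chains Fth1 and Ftl1, the importers Tfrc, Slc11a2, Slc39a14 and Slc11a1, which bring metal into the cell or its cytosol, the exporter Slc40a1, the ferroxidase Cp, and the metallothioneins Mt1 and Mt2. All 10 were found.

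The study asked how inflammatory monocytes change as they enter the inflamed central nervous system and differentiate there. Adult female C57BL/6J mice with no genetic modification received myelin oligodendrocyte glycoprotein peptide in complete Freund's adjuvant together with pertussis toxin, which induces experimental autoimmune encephalomyelitis (EAE), an inflammatory disease of the spinal cord. Cells were sorted at days 14 to 15. The bone marrow monocytes (BM monocytes) were taken as CD11b+ CD45+ cells that were Ly6Chi, Ly6G- and CD11c-. The spinal cord monocytes (SC monocytes) were CD64+, CD11b+ and CD45+ with the phenotype Ly6Chi Ly6G-. The antigen-presenting cells derived from monocytes (APCs), also from the spinal cord, were CD64+, CD11b+ and CD45+ but Ly6Clow/- and Ly6G-. Every mouse was immunized, so none of the libraries came from healthy tissue. The cells of several mice were combined, and 1 RNA-Seq library was made for each population, so there were no replicates and no test of the populations was possible. Preparation also differed by tissue. Spinal cords were digested with enzymes and spun on a density gradient before sorting. Bone marrow was flushed from the bones and enriched with a monocyte isolation kit. Tissue and preparation therefore cannot be told apart in the comparison of the monocyte libraries. One of the labels of the APC library names bone marrow as the source of the cells, while its title and its tissue label name the spinal cord, which was followed here.

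Iron is needed for respiration and DNA synthesis, but free ferrous iron generates radicals, so cells keep it inside ferritin, a hollow shell of heavy chains (Fth1), which oxidize iron, and light chains (Ftl1), which help to form the mineral core. Macrophages take up iron from transferrin, from free iron and from engulfed red cells, and release free iron through ferroportin (Slc40a1). When iron is scarce, iron regulatory proteins bind a hairpin called the iron-responsive element (IRE). Bound in the 5′ untranslated region (UTR) it blocks translation, as in ferritin, and bound in the 3′ UTR it protects the transcript, as in the transferrin receptor. Translation of ferritin is therefore not read from transcript levels. Metallothioneins are small cysteine-rich proteins that bind zinc and copper, and their genes are activated by metals through metal-responsive elements (MREs).

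The hairpins are shown because they are the sequence through which that shared control is known to act. A hairpin was searched as a bulged C, 5 paired bases, the loop CAGTGN and the matching 5 bases, with 3 further pairs below the bulge and G-T pairs allowed, on the sense strand. It was found in 36 of 58797 protein-coding transcripts (0.0612%) of GENCODE M21, in 21 of 21877 genes (0.0960%) and in 4 of the 10 genes followed here. Each window of 30 bases is given 5′ to 3′, with the loop in capitals and coordinates on GRCm38.
Fth1 5′ UTR, chr19:9982731-9982760, plus strand: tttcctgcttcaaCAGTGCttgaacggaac
Ftl1 5′ UTR, chr7:45459779-45459808, minus strand: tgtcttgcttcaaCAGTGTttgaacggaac
Slc40a1 5′ UTR, chr1:45925465-45925494, minus strand: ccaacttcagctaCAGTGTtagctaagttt
Tfrc 3′ UTR, chr16:32631218-32631247, plus strand: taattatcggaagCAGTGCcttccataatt
Tfrc 3′ UTR, chr16:32631597-32631626, plus strand: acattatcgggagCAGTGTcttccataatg
Tfrc 3′ UTR, chr16:32631662-32631691, plus strand: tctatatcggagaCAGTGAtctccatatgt
Tfrc 3′ UTR, chr16:32631709-32631738, plus strand: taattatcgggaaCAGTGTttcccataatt
The windows of Fth1 and Ftl1 carried the same 5 paired bases on either side of the loop. This strict pattern was not found in the transcripts of the other 6 genes. Hairpins with other bulges or pairing were not searched, so a missing match does not show that a gene lacks such an element. A match describes the sequence and says nothing of binding in these cells.

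The regions around the start sites of Mt1 and Mt2 are shown because these genes are the known targets of metal-responsive control. RefSeq sequences on GRCm38.p6 were searched from 250 bases before the start site to 30 bases after it for TGCACNC or TGCGCNC on both strands. Matches are in capitals.
Mt1 start site region: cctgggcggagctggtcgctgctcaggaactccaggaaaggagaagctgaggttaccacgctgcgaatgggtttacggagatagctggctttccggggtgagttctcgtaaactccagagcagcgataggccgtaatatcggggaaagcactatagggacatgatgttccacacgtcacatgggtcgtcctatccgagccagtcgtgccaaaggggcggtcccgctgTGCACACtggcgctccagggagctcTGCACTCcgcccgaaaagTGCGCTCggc
Mt2 start site region: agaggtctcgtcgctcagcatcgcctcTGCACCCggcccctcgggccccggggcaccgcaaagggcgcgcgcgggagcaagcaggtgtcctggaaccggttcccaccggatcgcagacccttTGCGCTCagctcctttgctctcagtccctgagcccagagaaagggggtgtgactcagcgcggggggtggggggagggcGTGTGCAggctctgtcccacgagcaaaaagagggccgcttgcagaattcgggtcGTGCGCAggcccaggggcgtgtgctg
The Mt1 region was chr8:94178839-94179118 and the Mt2 region chr8:94172368-94172647, both on the plus strand. The start sites here are those of RefSeq, and the Mt2 region ended before the GENCODE start of that gene at 94172664. Mt1 held 3 matches and Mt2 held 4. Of 32851 start site regions of the same length, 24.1% held at least 1 match, 1.73% at least 3 and 0.405% at least 4. The table held a start site region for 7 of the 10 genes, of which Fth1, Ftl1, Cp and Slc11a1 had 0 matches and Tfrc had 2 that overlap each other in 1 of its 2 regions.

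Levels are given as TPM, a share of all transcripts that is corrected for transcript length, and were rescaled here to the same sum over the 22238 genes. Changes are given as log2 fold changes of reads after scaling for library size, with 98% intervals. The intervals cover counting error only, since copies made by PCR are not independent molecules and 1 library shows no spread between animals. The libraries held 33280643, 27283795 and 28209589 estimated reads, in the order BM monocytes, SC monocytes and APCs. A gene counted as active when its TPM was over 3 in either library of a comparison. It was called higher or lower when, in addition, its interval lay wholly beyond a 2-fold change, after the definition the study used. The monocyte marker list was over 3 TPM for 5 of 5 genes in every library, and its leading gene Ly6c2 stood at 5205, 3602 and 1067 TPM. In these sorted bulk samples, fewer cells of a type and less RNA per cell cannot be told apart.

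Between bone marrow and SC monocytes, 9 of the 10 genes were called higher and 0 were called lower. Among all 10072 active genes, 13.8% were called higher and 10.7% lower, or 24.4% in either direction. With an assumed coefficient of variation of 0.2 between libraries 5 stayed called, without Ftl1, Tfrc, Slc11a1 and Slc11a2. Calls over all genes were then 918 higher and 454 lower. When all genes of the monocyte libraries set the scale, 7 were called, beside 1371 higher and 1587 lower over all genes. The 9 genes of the list that were called higher were both ferritin chains, all 4 importers, Cp and both metallothioneins. Their log2 fold changes ran from 1.16 to 6.64 with a median of 3.16, beside a median of -0.15 over all active genes. Of these 9, Cp, Slc39a14 and Mt2 were over 3 TPM only in the spinal cord, so a gene of that kind could enter the comparison only by being higher there. The other 6 were over 3 TPM in BM monocytes too. Slc40a1 stayed under 3 TPM in every library and was not eligible for a call. Between SC monocytes and APCs, 0 of the 10 genes were called, where 3.63% of 9734 active genes were called in either direction. The median of the 9 active genes was -0.12, beside -0.04 over all active genes. Both comparisons share the spinal cord monocyte library, so they are not independent of each other.

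**Figure D1:**
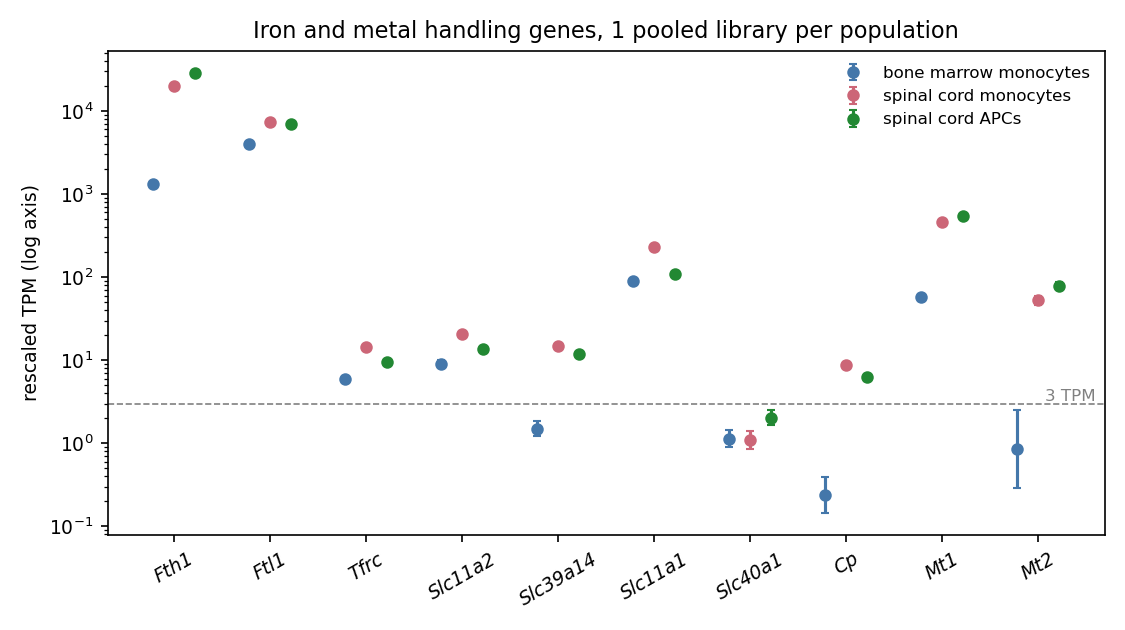
Rescaled TPM on a log axis of the 10 genes (horizontal axis) in the 3 libraries (colours), with 95% Wilson intervals for counting error. Every gene but Slc40a1 was higher in both spinal cord libraries than in BM monocytes, and Slc40a1 lay below the dashed line at 3 TPM throughout.

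Ferritin heavy chain had the highest level of all common genes in both spinal cord libraries. Fth1 (ENSMUSG00000024661.7, chr19:9980598-9985098, plus strand) had 19640 reads in BM monocytes, 250406 in SC monocytes and 364267 in APCs. Its level was 1333, 19718 and 28659 TPM, and it ranked 129 among the common genes in BM monocytes and 1 in both spinal cord libraries. The fold change from bone marrow to SC monocytes was 17.8 (log2 4.15, interval 4.13 to 4.18). Between SC monocytes and APCs the log2 value was 0.38 (0.38 to 0.39), under the 2-fold limit although its interval did not reach 0.

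The light chain changed less and was already abundant in the bone marrow. Ftl1 (ENSMUSG00000050708.16, chr7:45457944-45459884, minus strand) had 60499, 96867 and 103206 reads, or 4029, 7289 and 6895 TPM. It ranked 17, 11 and 14 among the common genes. Its fold change into the spinal cord was 2.24 (log2 1.16, interval 1.14 to 1.18), which lay just beyond the limit. This call was lost when libraries were scaled by total reads (0.98), by all genes of the monocyte libraries (0.91) or by TPM (0.86). Between SC monocytes and APCs the log2 value was -0.07 (-0.08 to -0.05).

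The unequal change of the chains turned their ratio around. Ferritin transcripts summed to 5362 TPM in BM monocytes, 27008 in SC monocytes and 35554 in APCs, which was 0.536%, 2.70% and 3.56% of all transcripts of the common genes. Relative to BM monocytes, the summed level was 5.04 times as high in SC monocytes and 6.63 times as high in APCs. The ratio of Fth1 to Ftl1, both in TPM, was 0.331 (95% interval 0.326 to 0.336) in BM monocytes. It was 2.71 (2.69 to 2.73) in SC monocytes and 4.16 (4.13 to 4.19) in APCs. Light chain transcripts thus outnumbered heavy chain transcripts in the bone marrow library, and heavy chain transcripts outnumbered light chain transcripts in both spinal cord libraries. The effective length of Fth1 was 655 bases in SC monocytes and 610 in APCs, and that of Ftl1 was 686 and 718. These lengths enter the TPM sums and ratios, and the intervals do not cover them. On reads, the log2 values from SC monocytes to APCs were 0.38 for Fth1 and -0.07 for Ftl1. The ferritin pair made up between 97.0% and 97.9% of the summed TPM of the 10 genes.

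**Figure D2:**
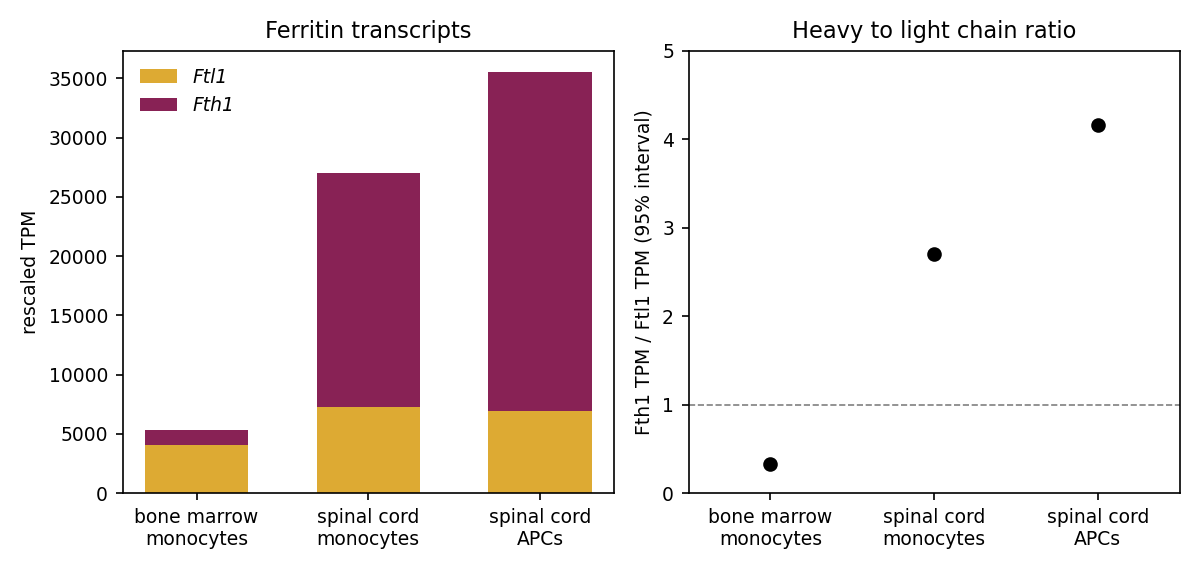
Left, rescaled TPM of Ftl1 and Fth1 stacked in each library, and right, the ratio of Fth1 to Ftl1 TPM with its 95% interval, which is smaller than the points, and a dashed line at 1. The ratio was 0.331, 2.71 and 4.16 from left to right, and the Ftl1 part differed far less than the Fth1 part.

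Ferritin genes have processed pseudogenes that can share reads with them. At 90% identity over at least 200 bases, Fth1 had 1 near-identical transcript of another gene and Ftl1 had 7. The single copy of Fth1 took 0 reads in BM monocytes and 6.06 in SC monocytes. The copies of Ftl1 together took 0.268%, 0.391% and 0.373% of the reads of Ftl1 and its copies. Most of these were assigned to Ftl1-ps1, which matched Ftl1 at 99.6% of 910 bases and had 139, 353 and 386 reads, and it was the only Ftl1 copy listed in the APC library. Slc11a1 had 1 copy with 0 reads in both monocyte libraries, and the other 7 genes had none at this limit. Adding the copies changed neither ferritin call, but how reads were divided among near-identical transcripts was set in the deposited estimates.

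The importers were present at moderate levels and were higher in the spinal cord. Tfrc (ENSMUSG00000022797.16, chr16:32608920-32632794, plus strand), the transferrin receptor that carries iron-laden transferrin into endosomes, had 425, 863 and 884 reads. Its level was 5.94, 14.4 and 9.39 TPM, and its log2 fold change into the spinal cord was 1.50 (1.31 to 1.70), a 2.83-fold difference. The transferrin receptor is usually high in dividing cells, and the summed TPM of 6 proliferation markers, led by Top2a in the monocytes and Mki67 in APCs, was 591, 39.6 and 44.4. Between SC monocytes and APCs the log2 value of Tfrc reads was -0.12 (-0.28 to 0.04), and its interval included 0.

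Slc11a2 (ENSMUSG00000023030.16, chr15:100387898-100425072, minus strand), DMT1, moves ferrous iron across the plasma membrane and out of endosomes. It had 400, 753 and 713 reads, or 9.09, 20.5 and 13.8 TPM, and its log2 fold change into the spinal cord was 1.39 (1.19 to 1.60). Scaling by all genes of the monocyte libraries gave 1.15, and the interval then no longer cleared the limit. In APCs relative to SC monocytes the value was -0.24 (-0.41 to -0.06).

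Slc39a14 (ENSMUSG00000022094.15, chr14:70303469-70351425, minus strand), ZIP14, imports zinc, manganese and iron that is not bound to transferrin. It had 91, 1076 and 1014 reads, or 1.49, 14.7 and 11.9 TPM. It was the importer with the largest difference between the monocyte libraries, with a log2 fold change of 4.04 (3.68 to 4.41), or 16.4-fold. In APCs relative to SC monocytes the value was -0.24 (-0.39 to -0.10).

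Slc11a1 (ENSMUSG00000026177.11, chr1:74375195-74386062, plus strand), NRAMP1, pumps divalent metals out of the phagosome of macrophages and neutrophils and is known for limiting the metal supply of engulfed microbes. It was the most abundant importer, with 3126, 5786 and 4673 reads and 89.3, 232 and 110.3 TPM. Its log2 fold change was 1.37 (1.30 to 1.44) into the spinal cord and -0.46 (-0.53 to -0.40) from SC monocytes to APCs. Neutrophils also express it, and the summed TPM of 7 neutrophil markers, led by Mmp8 in the monocytes and Ngp in APCs, was 1235, 166 and 349. The markers did not move together from SC monocytes to APCs. Of the 7, 2 (Ngp and Ltf) were called higher and 1 (Elane) lower, where 1.93% and 1.70% of all active genes were. Ngp went from 24.3 to 157 TPM and Elane from 3.50 to 0.849 TPM. The part of neutrophil RNA in the result was not tested.

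On the export side the genes differed most. Slc40a1 (ENSMUSG00000025993.10, chr1:45908068-45926523, minus strand), ferroportin, had 65 reads in BM monocytes, 66 in SC monocytes and 82 in APCs. Its level was 1.13 (95% interval 0.891 to 1.45), 1.10 (0.861 to 1.39) and 2.04 (1.64 to 2.53) TPM, so the intervals of the monocyte libraries overlapped and that of APCs lay above them. On reads the log2 value into the spinal cord was 0.50 (-0.08 to 1.09) and that from SC monocytes to APCs 0.15 (-0.40 to 0.71), and both intervals included 0. In all 3 libraries the ferroportin level was thus under 3 TPM, while Fth1, which shares the hairpin in its 5′ UTR, stood at 1333 TPM or more.

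Cp (ENSMUSG00000003617.16, chr3:19957054-20009145, plus strand), ceruloplasmin, is a copper ferroxidase that oxidizes iron as ferroportin releases it. It had 15, 581 and 454 reads, or 0.240, 8.87 and 6.24 TPM. The log2 fold change into the spinal cord was 5.70 (4.91 to 6.64), or 51.8-fold from a library with 15 reads, and the value from SC monocytes to APCs was -0.51 (-0.72 to -0.30). Astrocytes are known to make ceruloplasmin, and the summed TPM of 7 astrocyte markers, led by Aldoc, was 6.73, 41.0 and 63.3, with 0, 4 and 4 of them over 3 TPM. From SC monocytes to APCs, Gfap went from 5.57 to 3.70 and Gja1 from 4.56 to 1.53 TPM, the same direction as Cp. The rest of the 7 markers went the other way in TPM. Aldoc went from 22.4 to 43.7 TPM, and Slc1a2, which was called higher, from 3.97 to 8.42 TPM. Slc1a3 went from 1.93 to 2.73 and Aldh1l1 from 2.35 to 3.06 TPM, and Aqp4 rose but stayed under 3 TPM. Apart from Aldoc, these markers were named after their values were seen. The part of astrocyte RNA in the result was not tested.

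Metallothioneins were higher in the spinal cord as a pair. Mt1 (ENSMUSG00000031765.8, chr8:94179082-94180327, plus strand) had 411, 2635 and 3558 reads and 56.8, 454 and 537 TPM. Its rank among the common genes was 2658 in BM monocytes, 368 in SC monocytes and 281 in APCs. The log2 fold change was 3.16 (2.99 to 3.34), or 8.94-fold, into the spinal cord and 0.28 (0.19 to 0.36) from SC monocytes to APCs.

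Mt2 (ENSMUSG00000031762.7, chr8:94172664-94173568, plus strand) lies beside Mt1, with 6418 bases between the starts. It had 3 reads in BM monocytes, 262 in SC monocytes and 452 in APCs, or 0.845 (95% interval 0.287 to 2.48), 52.5 and 79.1 TPM. With so few reads in the bone marrow library, its log2 ratio of 6.64 was loosely set, with an interval from 5.17 to 8.81. From SC monocytes to APCs the log2 value was 0.63 (0.37 to 0.89), the highest of the 9 active genes but still under the limit. In TPM, Mt1 was 8.65 times as high as Mt2 in SC monocytes and 6.79 times in APCs.

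**Figure D3:**
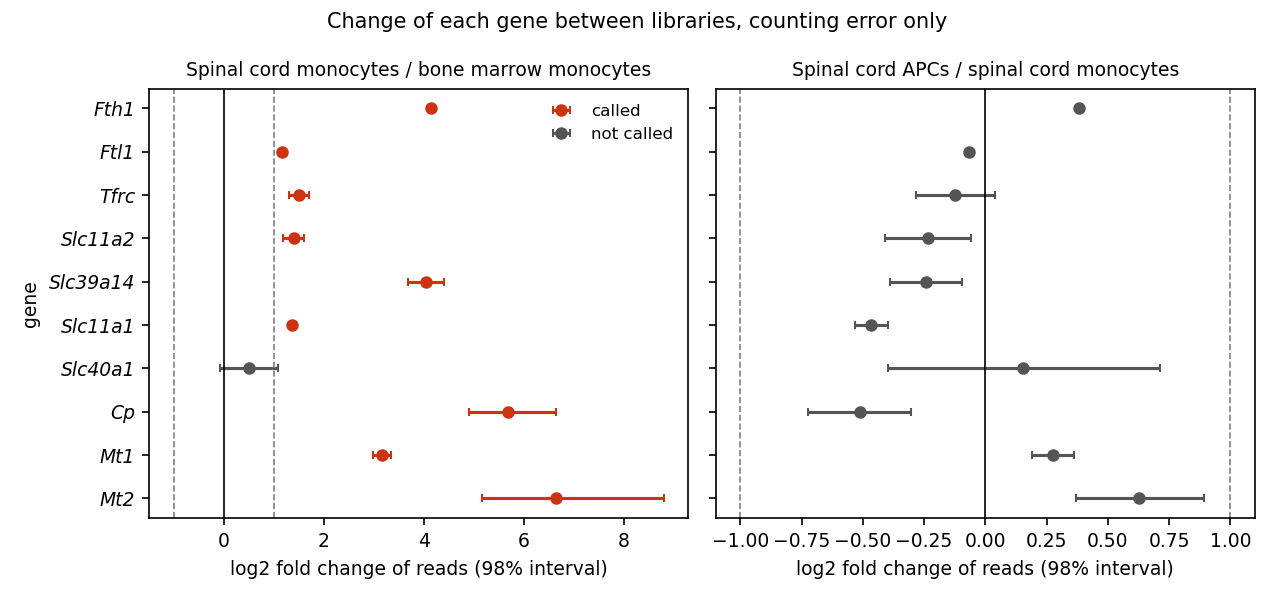
Log2 fold change of reads with its 98% interval for each gene, for spinal cord against BM monocytes (left) and for APCs against SC monocytes (right), with dashed lines at a 2-fold change and called genes in red. On the left 9 genes lay wholly beyond the line, and on the right all 10 values lay inside both lines.

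From SC monocytes to APCs, differences in reads were small, and part of the picture depended on transcript length. Fth1, Mt1 and Mt2 were the 3 active genes with values over 0, and the other 6 had values under 0. The APC library lists fewer genes than the monocyte libraries, and the effective length given for a gene also differed between the libraries. For Slc11a1 it was 1289 bases in SC monocytes and 2033 in APCs, and dividing reads by it moved the log2 value from -0.46 to -0.99 (-1.05 to -0.92). For Tfrc the lengths were 3087 and 4514, and the value moved from -0.12 to -0.54. For Slc11a2 the value moved from -0.24 to -0.49. For Slc40a1 the lengths were 3108 and 1932, and the value moved from 0.15 to 0.97 (0.42 to 1.53). Fth1 moved from 0.38 to 0.62, and Ftl1 from -0.07 to 0.00. None of the 10 genes was called on either scale. Between the monocyte libraries, the same division moved Mt2 from 6.64 to 5.91, Slc39a14 from 4.04 to 3.53 and Cp from 5.70 to 5.39. Slc11a1 moved up there, from 1.37 to 1.62, and all 9 calls stayed.

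**Figure D4:**
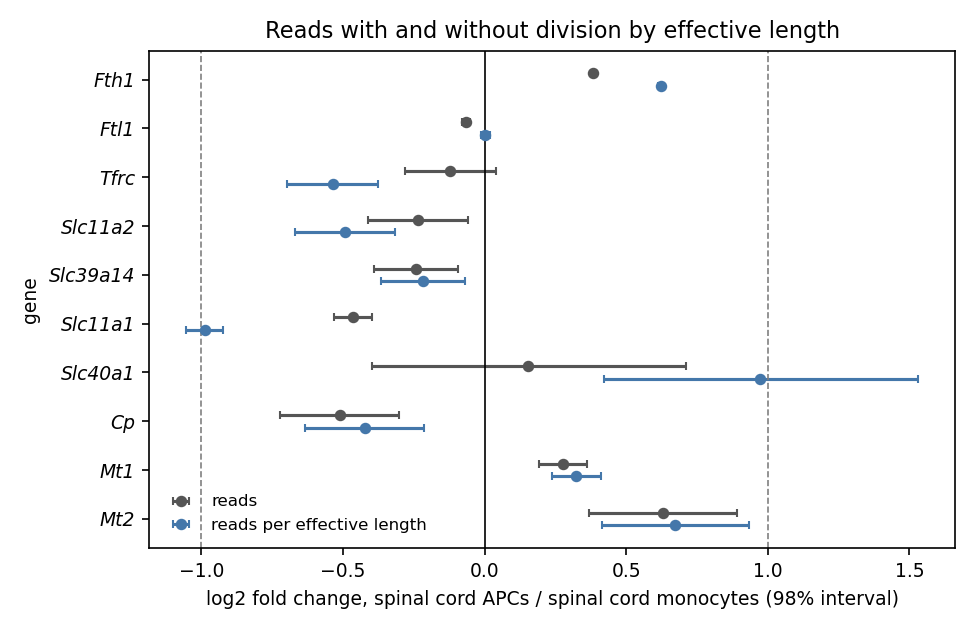
Log2 fold change of APCs against SC monocytes for each gene, from reads (grey) and from reads per effective length (blue), with 98% intervals and dashed lines at a 2-fold change. Slc11a1, Slc40a1, Tfrc, Slc11a2 and Fth1 moved the most, and the metallothioneins and Slc39a14 barely moved.

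Other cell types differed between the libraries too. Erythroid markers, which bear on genes of iron and heme, summed to 2.07 TPM in BM monocytes, 148 in SC monocytes and 50.8 in APCs, led by Hba-a2 at 1.37, 70.4 and 25.7 TPM. Of the 10 that were found, 0, 4 and 3 were over 3 TPM, 4 were called higher in SC than in BM monocytes, and 3 were called lower in APCs than in SC monocytes. Microglial markers, which come from cells that also hold ferritin, summed to 14.5, 97.5 and 256 TPM, led by P2ry12. The spinal cord sort gated on high CD45, which was meant to leave microglia out. Of the 8 microglial markers, 7 were called higher in each comparison, where 13.8% and 1.93% of all active genes were called higher. The paper could not exclude a small number of microglia among the APCs. By comparing Tmem119 with a published microglia profile, it estimated an upper limit of a few percent for their share. Oligodendrocyte markers, from the most iron-rich cells of the brain, were led by Mbp and summed to 103, 78.1 and 75.3 TPM, and neuron markers, led by Nefl in the spinal cord, stayed at 1.85 TPM or less. Sums were 15.7, 36.8 and 51.1 TPM for macrophages associated with the central nervous system, led by Siglec1 in the spinal cord. They were 17.2, 73.5 and 45.0 TPM for endothelial cells, led by Flt1 in the spinal cord. They were 0.436, 49.3 and 69.3 TPM for T cells, led by Trac there. The part of these cells in the results was not tested.

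Across 93 further genes of iron, heme, zinc and copper handling the calls went both ways. Between the monocyte libraries 64 were active, and 10 were called higher and 8 lower, with a median log2 fold change of 0.09. Between SC monocytes and APCs 65 were active, 1 was called higher and 1 lower, with a median of -0.02. For reading these counts, the shares over all active genes were 13.8% higher and 10.7% lower in the first comparison, and 1.93% higher and 1.70% lower in the second.

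Among 16 genes of iron uptake, export and hepcidin control, 5 were active between the monocyte libraries, 1 was called higher and 3 lower, with a median of -1.76. Trf, the serum iron carrier transferrin, was at 178, 447 and 420 TPM (1.44 into the spinal cord, interval 1.39 to 1.49). Lcn2, which withholds iron by binding bacterial siderophores, was at 1038 TPM in BM monocytes, 144 in SC monocytes and 84.7 in APCs (-2.55 into the spinal cord). Ltf, lactoferrin, was at 27.6, 9.76 and 34.1 TPM. It was lower in spinal cord than in BM monocytes (-1.76) and higher in APCs than in SC monocytes (2.43, interval 2.20 to 2.67). Lcn2 and Ltf are neutrophil granule genes, and Ltf is itself 1 of the 7 neutrophil markers whose sum is given above. The part of neutrophil RNA in these values was not tested. Steap3, the ferrireductase that works beside the transferrin receptor in endosomes, was at 12.3, 2.65 and 3.34 TPM (-1.92 into the spinal cord), opposite to Tfrc and Slc11a2.

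Of 11 genes of iron sensing and ferritin turnover, 10 were active between the monocyte libraries, and 2 were called higher and 0 lower, with a median of -0.23. Nfe2l2, a transcription factor that activates ferritin and heme oxygenase genes under oxidative stress, was at 103, 373 and 357 TPM (2.08 into the spinal cord). Fbxl5, which marks an iron regulatory protein for destruction when iron is plentiful, was at 91.2, 270.3 and 183 TPM (1.80). The iron chaperones Pcbp2 and Pcbp1, which deliver iron to ferritin, were at 743, 539 and 593 TPM and at 275, 278 and 260.1 TPM, and neither was called. Bach1, a repressor of ferritin and heme oxygenase genes that is released from DNA by heme, was at 89.1 TPM in both monocyte libraries and at 36.7 in APCs. It was the 1 pathway gene called lower in APCs than in SC monocytes, with a log2 fold change of -1.29 (-1.35 to -1.23).

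Of 14 genes of heme uptake, export and breakdown, 9 were active between the monocyte libraries, and 2 were called higher and 2 lower, with a median of 0.17. Hmox1, heme oxygenase, which frees iron from heme, was at 121, 439 and 376 TPM (2.16 into the spinal cord), and Blvrb, a biliverdin reductase downstream of it, at 26.6, 70.6 and 86.1 TPM (1.69). Hp, haptoglobin, which captures free hemoglobin, was at 2148, 589 and 297 TPM, with a log2 value of -1.55 into the spinal cord, and an interval from -1.05 to -0.95 in the second comparison that did not clear the limit. Flvcr1, a heme exporter, was at 44.2, 16.2 and 10.8 TPM (-1.37). Lrp1, the receptor for heme bound to hemopexin, was at 171, 188 and 139 TPM and was not called.

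Of 17 genes of heme synthesis and mitochondrial iron, 16 were active, and 2 were called higher and 2 lower in SC monocytes, with a median of -0.20. Alas1, the first and rate-limiting enzyme of heme synthesis outside red cells, was at 102, 481 and 397 TPM (2.33). Slc25a37, mitoferrin, which carries iron into mitochondria, was at 7.11, 81.2 and 66.4 TPM (3.57, interval 3.44 to 3.71). Cpox, a later enzyme of heme synthesis, was at 25.5, 8.58 and 6.93 TPM (-1.21). Iscu, the scaffold on which iron-sulfur clusters are built, was at 108, 97.9 and 114 TPM and was not called.

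Of 26 genes of zinc transport and sensing, 16 were active, and 2 were called higher and 0 lower in SC monocytes, with a median of 0.13. Slc30a4, which moves zinc into vesicles, was at 0.477, 6.80 and 9.73 TPM (4.09, interval 3.64 to 4.59). Mt3, the metallothionein known from brain, had 0, 27 and 6 reads, so its reads were at least 12.6-fold higher in spinal cord than in BM monocytes when 3 reads stand for the library with 0. Its log2 value from SC monocytes to APCs was -2.21 (-3.83 to -0.88) and was not called. The zinc transporters Slc39a7 (138, 92.9 and 71.5 TPM), Slc39a1 (57.4, 86.0 and 92.7) and Slc30a9 (38.3, 58.6 and 44.8) were the most abundant of this list and were not called.

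Of 9 genes of copper transport and chaperones, 8 were active, and 1 was called higher and 1 lower in SC monocytes, with a median of 0.78. Cox17, which brings copper to cytochrome oxidase, was at 164, 314 and 234 TPM (1.28). Sod1, the copper-zinc superoxide dismutase, was at 955, 295 and 306 TPM (-1.22). Atox1, which hands copper to the export pumps, was at 273, 474 and 273 TPM, and its log2 value of 1.07 (0.97 to 1.18) was not called. In the second comparison none of the heme, zinc or copper genes was called.

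**Figure D5:**
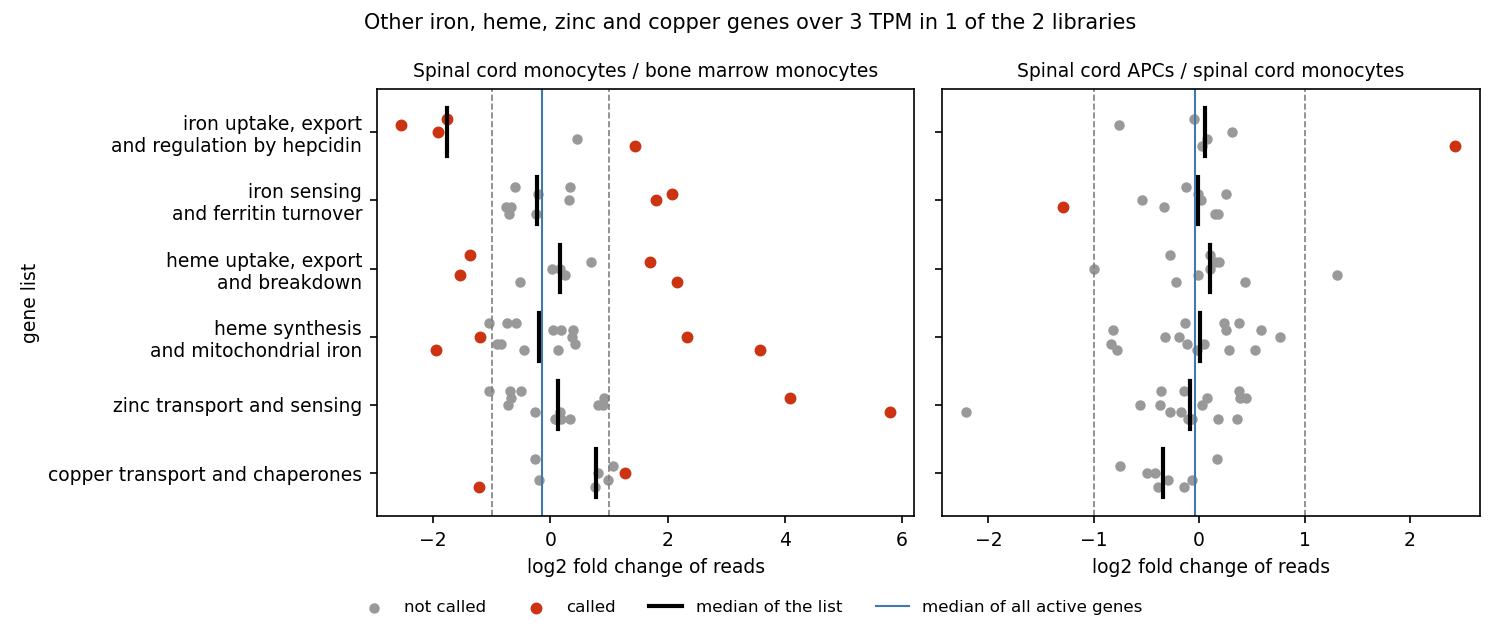
Log2 fold change of reads of each active gene of the 6 lists (rows), for spinal cord against BM monocytes (left) and APCs against SC monocytes (right), with called genes in red, the median of each list as a black bar and the median of all active genes as a blue line. On the left 10 genes were called higher and 8 lower, and on the right the 2 called genes were Ltf and Bach1.

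The pattern of Fth1 across the 3 libraries was set beside that of the 1956 genes over 100 TPM in at least 1 library, by the distance between their pairs of log2 fold changes. The nearest were Smpdl3b (distance 0.21, with 6.80, 87.7 and 105 TPM), H2-Q6 (0.29, with 11.4, 197 and 251 TPM) and Gatm (0.39, with 20.0, 280.3 and 274 TPM). H2-Q6 belongs to a family of similar class I genes, so its reads may be shared with relatives. The levels of all 3 were far below that of Fth1.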

How the data were processed

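Sorted cells were combined across mice, and each population gave 1 RNA-Seq library. Expression was estimated by the authors with Salmon (0.14.1, with build mm10, per the submitters' processing notes) against GENCODE vM22 and pooled the transcripts of each gene. In the TPM that the authors deposited, both effective length and depth are corrected for. Estimated counts of reads, as deposited, carry no normalization and can hold fractions where transcripts share reads, as for 7 of the 10 genes in at least 1 library. The monocyte libraries list 54432 genes and the APC library 22242, a difference whose origin is not given in the sources used here. The 22238 common genes held 84.9% and 85.3% of the TPM of the bone marrow and spinal cord monocytes.

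Estimated counts were rounded and compared by a definition recomputed after GFold, which itself was not run. The log2 ratio received a gamma posterior from reads plus 1 after division by size factors (median of ratios over the common genes). A gene was called where percentile 1 or 99 exceeded 2-fold and either library of the pair had a rescaled TPM over 3. The study's threshold of 2 on log2 TPM was thus taken to include a pseudocount of 1. Intervals of TPM are 95% Wilson intervals and cover counting error only. Coordinates and transcripts were read from GENCODE M21 (GRCm38), where the versioned identifier of 99.0% of the common genes was found. Near-identical transcripts were found with blastn 2.17.0. The calculation was tested on simulated data. Python 3.11.15, scipy 1.17.1 and edgeR 4.0.16 (for TMM factors only) were used.

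The genes and gene lists were chosen with earlier results of these data known. Named are all 10 genes, the 3 most abundant and up to 3 most changed called genes of each list per comparison, the 3 genes nearest to Fth1, and the leading gene of each marker list. A gene that this rule would name is not reported here. The alternatives were no TPM threshold or one of 4, total reads, TMM factors, all genes of the monocyte libraries, exclusion of ribosomal protein, mitochondrial and Gm genes, reads per effective length, an assumed coefficient of variation of 0.2 or 0.4 between libraries, other percentiles, 0.5 reads added, a plain 2-fold change, reads summed with near-identical copies, and log2 of TPM plus 1 or 0.1.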

Additional observations from a re-analysis of the deposited data

Results flagged for a closer look

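Reads were listed for processed pseudogenes that are near-identical copies of the ferritin genes. They are absent from the APC library, and the main comparisons did not use them. In 4 of them the reads in SC monocytes were more than the 3 that a count of 0 allows. Gm6977, a processed pseudogene resembling Fth1, had 6.06 reads in SC monocytes and 0 in BM monocytes. The copies of Ftl1 among these 4 were Gm15590 with 10.4 reads in SC monocytes and 4.62 in BM monocytes, Gm12164 with 5.22 and 9.01, and Ftl2-ps with 8.24 and 8.11. Set against 250406 reads of Fth1 and 96867 of Ftl1 in the same library, these numbers are small. Ftl1-ps1, the copy with the most reads, is annotated as protein-coding and is not counted here. It had 353 reads in SC monocytes and 139 in BM monocytes.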

How the results depend on the processing

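No paired analysis was possible because each population was 1 library with no replicate number, and no replicate could be left out. Of 292 alternative values for single genes, 271 kept their direction and their side of the call limit. Part of this count was fixed in advance. Other TPM thresholds, other percentiles, an assumed coefficient of variation and a plain 2-fold change left the log2 value itself unchanged. Direction could not change under these settings. A wider interval could only remove a call, and a plain 2-fold change could only add one. With an assumed coefficient of variation of 0.2 or 0.4 between libraries, 5 of the 9 genes remained called higher in SC monocytes, and Ftl1, Tfrc, Slc11a1 and Slc11a2 were lost. Between the monocyte libraries 18 of the 64 active pathway genes were called, against 8 with 0.2 and 3 with 0.4. Over all 10072 active genes, calls were then 918 higher and 454 lower with 0.2, and 630 and 225 with 0.4. Between APCs and SC monocytes 2 pathway genes were called, against 1 with 0.2, 0 with 0.4 and 5 by a plain 2-fold change. Over all genes that comparison gave 85 higher and 35 lower with 0.2, 43 and 14 with 0.4, and 326 and 302 by a plain 2-fold change. The real spread between animals was not measured. The log2 value of Ftl1 from SC monocytes to APCs changed sign to 0.0022 per effective length and to 0.15 with deposited TPM plus 1. That of Slc40a1 between the monocyte libraries changed sign to -0.027 with rescaled TPM plus 1, -0.047 with rescaled TPM plus 0.1 and -0.022 with deposited TPM plus 1. For Slc11a1, the change from SC monocytes to APCs passed 2-fold with rescaled TPM plus 1 (-1.06) or plus 0.1 (-1.07), where no interval was used. Scaling by total reads moved the median of all active genes by -0.18 between the monocyte libraries, by all genes of the monocyte libraries by -0.25, and by rescaled TPM plus 1 by -0.26. Calls over all genes were 1386 higher and 1073 lower in the report, 1371 and 1587 when scaled by all genes of the monocyte libraries, and 1315 and 1890 with rescaled TPM plus 1. From SC monocytes to APCs they were 188 higher and 165 lower, and 233 and 320 per effective length. Slc40a1 with 65 to 82 reads and Mt2 with 3 reads in BM monocytes are limited by depth.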
